A study of Homo sapiens with 4 samples.

Results

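The BCL2 family was followed at the RNA level in BV-173 and SUP-B15, established human B cell precursor leukemia lines that carry the Philadelphia chromosome and its product, the BCR-ABL1 kinase. The members were 10 genes chosen for their roles: the survival genes BCL2, BCL2L1 and MCL1, the effectors BAX and BAK1, and the BH3-only genes BCL2L11, BID, BAD, PMAIP1 and BIK. All probe sets whose platform annotation gave 1 of these symbols were taken, which made 24 of the 19064 probe sets with 1 gene symbol, and 10 of 11963 genes. Each line was grown without drug, or for 16 h with STI571 (imatinib) at 10 μmol/l, a small molecule that blocks the ABL kinase. Both lines carry the fusion kinase, so no array came from cells without it. The 4 groups held 1 array each, which limits the precision of every value, and the labels do not say from how many cultures the RNA came.

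Mitochondrial apoptosis is decided among these proteins. BAX and BAK, the products of BAX and BAK1, open the outer mitochondrial membrane and release cytochrome c. BCL2, BCL-XL (from BCL2L1) and MCL1 hold them in check, and BH3-only proteins such as BIM (from BCL2L11), BID, BAD, NOXA (from PMAIP1) and BIK either engage the effectors or block the survival proteins. In BCR-ABL1 leukemia the kinase is known to sustain survival proteins through STAT5 and to restrain BIM and BAD through ERK and AKT. Much of that control acts on protein stability and phosphorylation, which an RNA array does not measure.

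The arrays were alike in scaling, with a median signal of 95.5 to 115 over 22277 probe sets. The 3'/5' ratio of GAPDH, a sign of RNA quality, lay between 1.12 and 1.20. Mean 18S ribosomal RNA signal was 2817 in treated BV-173 and 1513 to 1597 in the other arrays; its part in the results was not tested. Of 7 B precursor markers on the array, 6 exceeded the array median in both BV-173 arrays and 7 in both SUP-B15 arrays, and their summed signal was 9244 in BV-173 without and 20034 with STI571, 34746 in SUP-B15 without and 48265 with it. Of 7 T and NK cell markers 1 exceeded the median in every array, with summed signals of 388 to 494. Of 7 monocyte and granulocyte markers 0 to 2 did (145 to 455), and of 5 erythroid and platelet markers 0 to 2 (154 to 284). The part of these differences in the results was not tested.

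Signals are intensities per probe set on the authors' linear scale, and a signal below the array median is called dim here. Differences are of log2(signal + 24.5), where 24.5 is the 25th percentile over all signals, so that changes of dim probe sets are understated. Probe sets at or above the array median in at least 1 array were kept, 22 of the 24. The brightest kept probe set stood for its gene. Those of BAK1 and BCL2L11 passed this filter only through BV-173, and that of BIK only through untreated SUP-B15, so a line difference was favoured by their passing, and for BIK also a lower value with STI571 in SUP-B15.

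**Figure D1:**
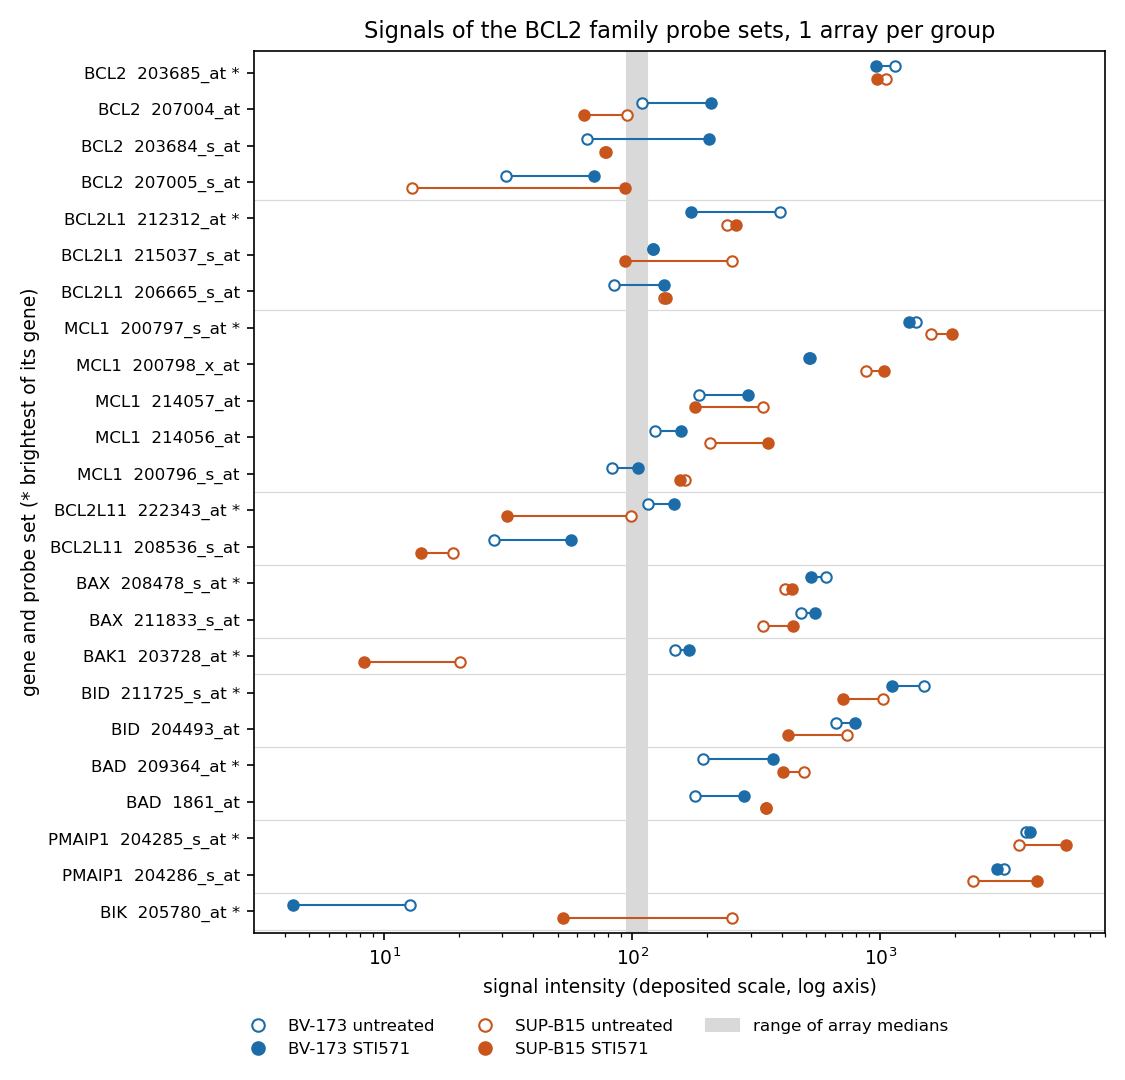
Signal intensity (log axis) of each of the 24 BCL2 family probe sets, 1 row each, in BV-173 (blue) and SUP-B15 (orange), untreated (open) and after STI571 (filled); the star marks the brightest probe set of a gene and the grey band the range of the 4 array medians, 95.5 to 115. BAK1 in SUP-B15 (20.3 and 8.3) and BIK in BV-173 (12.7 and 4.3) lie left of the band.

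The first question was whether the family's transcripts responded to STI571 over both lines. None of the 10 members passed the test: limma with Benjamini-Hochberg adjustment over 7916 genes called 0 of 10 at an adjusted p under 0.05, against 3.06% of all genes. Only BID had an unadjusted p under 0.05, 1 of 10 members against 12.4% of all genes. The median of the members' mean log2 changes was −0.17, with a range of −1.11 to 0.35, and the median over all genes was 0.02. Fitted probe set by probe set, 0 of the 22 kept member probe sets were called (1 at an unadjusted p under 0.05), against 2.94% of 11818 probe sets. With 1 residual degree of freedom the errors of this fit come from the intensity trend over all genes and not from a member's own spread, and a missed threshold does not show that a transcript was unaltered.

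Among the survival genes, BCL2 varied little by its brightest probe set. Without and then with STI571 this read 1148 and 956 in BV-173, and 1051 and 967 in SUP-B15; pairs of values below have the same order. The 4 arrays lay within a narrow band, and the mean log2 change was −0.19 (95% interval −0.63 to 0.25, adjusted p = 0.855 by limma). The other 3 BCL2 probe sets had lower signals and other patterns. The probe set 203684_s_at read 65.7 and 204 in BV-173, a log2 difference of 1.34, and 78.6 and 77.9 in SUP-B15. The probe set 207004_at, which the annotation ties to another RefSeq transcript than the brightest, read 109 and 209 in BV-173 and 95.2 and 63.8 in SUP-B15. A further probe set of that transcript, 207005_s_at, stayed dim in all arrays and was not tested; it read 31.0 and 70.3 in BV-173 and 12.9 and 93.5 in SUP-B15. All 3 were thus higher in treated than in untreated BV-173, and the brightest was lower. The mean over kept BCL2 probe sets had the opposite sign, 0.22 (adjusted p = 0.877). Of these, 203684_s_at was kept only through treated BV-173, which favours a higher value with STI571 there, and 207004_at only through BV-173. Whether these probe sets tell transcripts of BCL2 apart was not tested.

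BCL2L1, which encodes BCL-XL and is known as a STAT5 target, had unlike values in the lines. Its brightest probe set read 392 without and 173 with STI571 in BV-173, 2.11-fold lower on the log2(signal + 24.5) scale. In SUP-B15 the same probe set read 241 and 262. The highest value was that of untreated BV-173 and the lowest that of treated BV-173, with both SUP-B15 arrays between them. Another probe set, 215037_s_at, differed within SUP-B15 instead, with 122 and 122 in BV-173 and 253 and 93.5 in SUP-B15. The third, 206665_s_at, read 84.3 and 135 in BV-173 and 134 and 136 in SUP-B15. The 3 BCL2L1 probe sets thus differed in which array stood out, and the mean log2 change of the brightest was −0.48 (95% interval −1.15 to 0.18, adjusted p = 0.664 by limma).

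MCL1, a short-lived survival protein that many leukemias rely on, had a mean change near 0 by its brightest probe set. This probe set read 1392 and 1301 in BV-173 and 1605 and 1947 in SUP-B15. The SUP-B15 arrays were both above the BV-173 arrays, and the share of all genes with lines so separated was not counted. Within BV-173 the values were close. The mean log2 change was 0.09 (95% interval −0.33 to 0.51, adjusted p = 0.945 by limma). The second brightest, 200798_x_at, read 519 and 518 in BV-173 and 874 and 1037 in SUP-B15. Across the 5 MCL1 probe sets the log2 change lay between −0.10 and 0.59 in BV-173 and between −0.82 and 0.71 in SUP-B15. The lowest of the SUP-B15 values came from 214057_at, which went from 335 to 179.

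The effectors gave contrasting levels. BAX read 602 and 525 in BV-173 and 414 and 439 in SUP-B15 with its brightest probe set, and 477 and 546 and 337 and 444 with the other. Both were higher in untreated and treated BV-173 than in the matching SUP-B15 array. The mean log2 STI571 change of the brightest was −0.06 (95% interval −0.58 to 0.46, adjusted p = 0.975 by limma), and the mean of both probe sets gave 0.11. BAK1 has a single probe set, which read 148 and 169 in BV-173 and 20.3 and 8.3 in SUP-B15. In SUP-B15 it was below the 25th percentile of the array, at percentiles 21.7 and 13.2, and in BV-173 at 57.0 and 58.0. Its STI571 estimate of −0.14 carries an interval of −1.74 to 1.46, which holds sizeable changes in both directions.

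BCL2L11, the gene of BIM, lay near or under the array median. Its brightest probe set read 116 and 147 in BV-173 and 98.8 and 31.3 in SUP-B15. Treated SUP-B15 was the lowest of the 4 arrays, 2.21-fold below untreated SUP-B15, and treated BV-173 the highest. The other probe set, 208536_s_at, was under the array median throughout and read 27.7 and 56.8 in BV-173 and 19.0 and 14.1 in SUP-B15. Both probe sets were higher after STI571 in BV-173 and lower after it in SUP-B15. The mean log2 change was −0.43 with a wide interval, −1.66 to 0.81 (adjusted p = 0.890 by limma).

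BID, the BH3-only protein that links death receptors to mitochondria once cleaved, read 1493 and 1116 in BV-173 and 1027 and 706 in SUP-B15. Treated arrays were lower than untreated ones in both lines, and each SUP-B15 array was lower than its BV-173 counterpart. The mean log2 change of −0.47 (95% interval −0.91 to −0.03) had an unadjusted p of 0.0361 and an adjusted p of 0.342 by limma, so it was not called. The second BID probe set, 204493_at, read 662 and 788 in BV-173, opposite to the first, and 731 and 424 in SUP-B15.

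BAD, whose protein is kept inactive by phosphorylation downstream of growth signals, read 193 and 369 in BV-173 and 492 and 405 in SUP-B15. Its second probe set read 179 and 283 in BV-173 and 347 and 346 in SUP-B15. Both probe sets had their lowest signal in untreated BV-173, and treated BV-173 lay between that and both SUP-B15 arrays. The mean log2 change was 0.29 (95% interval −0.29 to 0.88, adjusted p = 0.815 by limma), made up of 0.85 for BV-173 and −0.27 for SUP-B15.

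PMAIP1, the gene of NOXA, whose main partner is MCL1, was higher in treated SUP-B15 than in the other arrays. It read 3853 and 4021 in BV-173 and 3603 and 5601 in SUP-B15, at percentiles of 95.4 to 97.0 of each array. Its second probe set read 3152 and 2950 in BV-173 and 2362 and 4257 in SUP-B15. With both probe sets treated SUP-B15 was 1.55-fold and 1.79-fold above untreated SUP-B15 on the log2(signal + 24.5) scale, while the BV-173 pair differed by 1.04-fold and 1.07-fold. The mean log2 change was 0.35 (95% interval −0.05 to 0.75, adjusted p = 0.535 by limma).

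BIK, a BH3-only protein of the endoplasmic reticulum, had a mean log2 change of −1.11 with a wide interval, −3.00 to 0.79 (adjusted p = 0.768 by limma). It read 12.7 and 4.3 in BV-173 and 252 and 52.6 in SUP-B15. Only untreated SUP-B15 exceeded the array median, which alone kept BIK in the fit and favours a lower value with treatment, and treated SUP-B15 was 3.59-fold lower on the log2(signal + 24.5) scale. The added value sets the size of such a change: the mean was −1.81 with 1 added and −0.67 with 98 added. The kept genes with values most like BIK over the 4 arrays, after centring each on its mean, were MRC1 (Euclidean distance 0.19 log2 units, against 2.53 for BIK's own distance from its mean), ANO1 (0.51) and SH3BP5 (0.56). MRC1 read 210 and 131 in BV-173 and 1490 and 442 in SUP-B15.

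Responses of single lines have no replicate and no test, and were counted by size. In BV-173 1 of 10 members, BCL2L1, differed 2-fold or more between treated and untreated cells, against 11.6% of all genes. In SUP-B15 2 of 10 did, BCL2L11 and BIK, both lower after treatment, against 9.83% of all genes; BIK had been kept only for its untreated SUP-B15 signal, which favours such a difference. The median size of the members' log2 change was 0.27 for BV-173 and 0.36 for SUP-B15, while over all genes it was 0.33 and 0.32. The responses of the lines were 2-fold or more apart for 4 of 10 members, BCL2L1, BCL2L11, BAD and BIK, against 17.3% of all genes. The sign of the response differed between the lines for 6 of 10 members, against 44.5% of all genes. By their brightest probe sets, 1 of 10 members, PMAIP1, was higher after STI571 in both lines, against 28.9% of all genes. BCL2, BID and BIK, 3 of 10, were lower in both, against 26.5% of all genes. In BV-173 the other probe sets of PMAIP1 (−0.09), BID (0.24) and BCL2 (0.77 to 1.34) had the opposite sign. The BCL2 probe set at 1.34 was kept only through treated BV-173, which favours such a value. These differences were not tested line by line. With a member's probe sets averaged, 2 members were 2-fold or more apart and none in BV-173 reached 2-fold; with 98 added, 1 was apart.

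**Figure D2:**
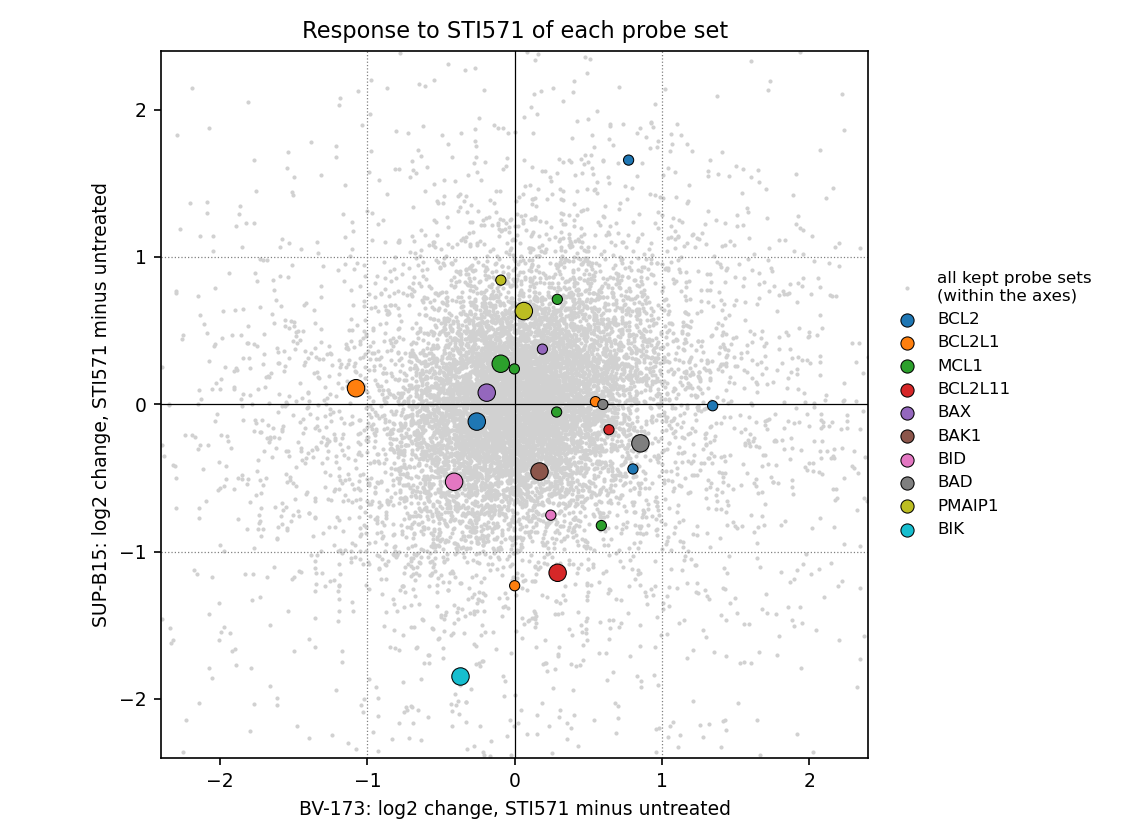
Log2 change with STI571 in BV-173 (horizontal) against SUP-B15 (vertical) for each of the 24 member probe sets, coloured by gene, large for the brightest of a gene, over all kept probe sets (grey); dotted lines mark 2-fold. BCL2L1 lies at −1.08 and 0.11, BCL2L11 at 0.29 and −1.14, and BIK at −0.37 and −1.84, and probe sets of 1 gene often lie apart.

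The lines were then compared with each other, averaged over both treatment states. The call rate of the family was not above that of other genes: limma called 2 of 10 members, BAK1 and BID, against 29.0% of all genes. Both were lower in SUP-B15, which was so for 14.5% of all genes. The median size of the members' line difference was 0.49 log2 units and that of all genes 0.50.

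BAK1 was lower in SUP-B15 than in BV-173, with a fitted log2 difference of −2.25 (SE 0.82, adjusted p = 0.0233 by limma). It was kept only through BV-173, and without detection calls its SUP-B15 signals of 20.3 and 8.3 cannot be set against background, so the size of the difference is not settled. The difference was −1.95 in untreated and −2.56 in treated cells. The arrays of the lines did not overlap, and the share of all genes without such overlap was not counted. BAK1 passed the filter only through BV-173, which favoured this. Its call held under each alternative that kept BAK1 in the fit (adjusted p = 0.00791 to 0.0442), and the size went from −1.19 with 98 added to −3.50 with 1 added. These alternatives all use the same single probe set and the same arrays, so they are not independent of each other. The kept genes most like BAK1 over the 4 arrays were GMPS (Euclidean distance 0.10 log2 units, against 2.28 for BAK1's own), MBP (0.17) and RAD50 (0.19).

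BID was lower in SUP-B15 by a mean of 0.59 on the log2 scale (estimate −0.59), with log2 differences of −0.53 in untreated and −0.64 in treated cells (SE of the mean 0.22, adjusted p = 0.0333 by limma). With this brightest probe set, the signal of 1027 in untreated SUP-B15 was below that of 1116 in treated BV-173, so the lines did not overlap. With the second, 204493_at, they did: untreated SUP-B15 read 731 and untreated BV-173 662. The share of all genes whose lines did not overlap was not counted. The call ended with quantile normalization (adjusted p = 0.0731), with the mean of its probe sets (0.119), with its gene-specific probe set (0.293), without the intensity trend (0.206) and without a treatment term (0.173). The range over all alternatives was 0.0218 to 0.293.

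BIK went the other way without being called, at a log2 difference of 2.16 (SE 0.97, adjusted p = 0.0787 by limma). The difference was 2.89 in untreated and 1.42 in treated cells. BIK passed with no filter (adjusted p = 0.0101) and with 98 added (0.0437), and its adjusted p ranged from 0.0101 to 0.146 over all alternatives run. BAD was higher in SUP-B15 by 0.69 (SE 0.30, adjusted p = 0.0686 by limma), 1.25 in untreated and 0.13 in treated cells. BCL2L11 had a line difference of −0.90 (SE 0.63, adjusted p = 0.299), which was −0.19 in untreated and −1.62 in treated cells.

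The survival genes were not called between the lines by their brightest probe sets. The line difference was −0.05 for BCL2 (95% interval −0.49 to 0.39), −0.06 for BCL2L1 (−0.72 to 0.61) and 0.39 for MCL1 (−0.03 to 0.80), with adjusted p-values of 0.886, 0.924 and 0.166 by limma. BAX had −0.38 (−0.90 to 0.14, adjusted p = 0.303) and PMAIP1 0.19 (−0.21 to 0.59, adjusted p = 0.532). Fitted by probe set, 3 of 22 member probe sets were called for the line, those of BAK1 and BID and the MCL1 probe set 200798_x_at, against 26.6% of all probe sets. The MCL1 probe set was higher in SUP-B15 by 0.85 (SE 0.24, adjusted p = 0.00288 by limma); its suffix stands for probes that can match other transcripts. The call did not hold when arrays were set to one median (adjusted p = 0.054) or without the intensity trend (0.124). All 5 MCL1 probe sets were higher in untreated SUP-B15 than in untreated BV-173, by 0.20 to 0.81, and 4 of 5 in treated cells. The 0.81 is from 200796_s_at, which passed the filter only through SUP-B15, so a higher SUP-B15 value was favoured. The 5 probe sets read the same gene on the same arrays, so they are not replicates. Leaving out treated BV-173, the array with the high 18S signal, leaves the untreated line differences and the SUP-B15 responses given above, with no test.

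**Figure D3:**
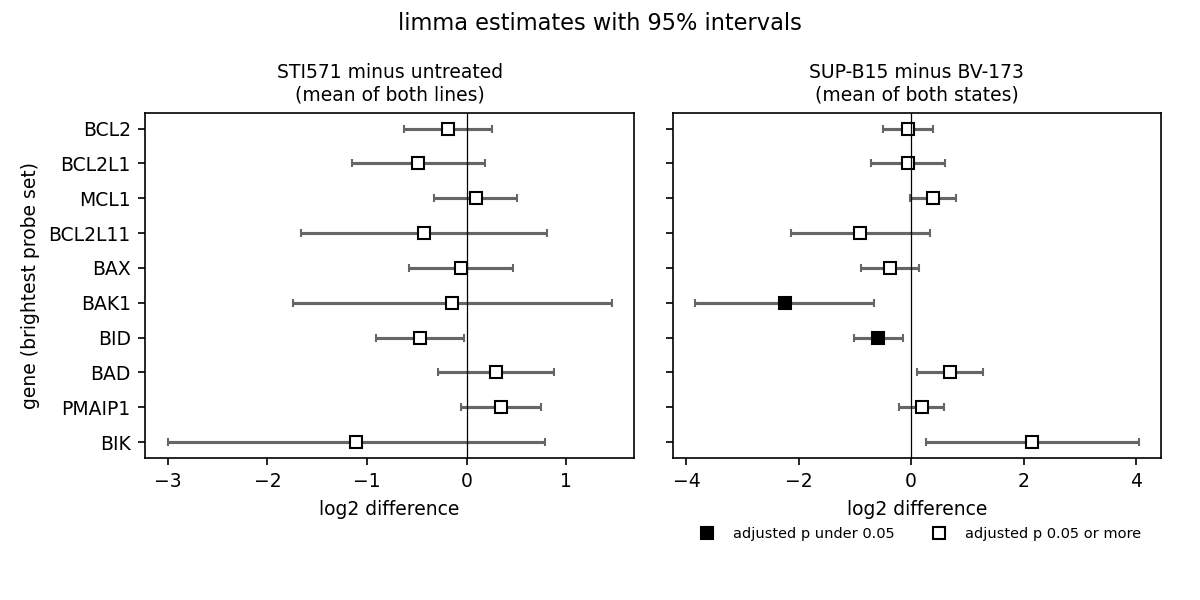
Limma estimates for the brightest probe set of each member with 95% intervals: left, the mean STI571 change over both lines; right, SUP-B15 minus BV-173 over both states (log2 units, filled squares adjusted p under 0.05). BAK1 (−2.25) and BID (−0.59) are the filled squares, both for the line difference, and the intervals are widest for the dim genes BIK, BAK1 and BCL2L11.

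Other genes of the pathway were read from 3 further lists. Of 15 other BCL2 family genes 11 were on the array and 7 were kept. BNIP3, a BH3-like protein of mitochondria that serves in their removal by autophagy, was called lower with STI571 and 0 were called higher, against the 3.06% of all genes above; the list's median was −0.08. It read 2676 and 1465 in BV-173 and 2228 and 1055 in SUP-B15, so that both treated arrays were below both untreated ones. The share of all genes with treated and untreated arrays so separated was not counted. The mean log2 change of BNIP3 was −0.96 (SE 0.21, adjusted p = 0.000557 by limma), and its second probe set was called too (adjusted p = 0.0244). The BNIP3 call ended without the intensity trend (adjusted p = 0.548) and without the block for the cell line (1.0). HRK, a BH3-only gene, had log2 changes of 0.50 and 0.89 (adjusted p = 0.674), BNIP1 −0.19 and −0.45 (0.799) and BCL2L13 −0.14 and −0.46 (0.744). BCL2A1, BCL2L10, BCL2L14 and BOK were not kept, with signals of 4.3 to 88.3.

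Of 18 genes of the machinery that acts after the family, 14 were kept and 0 were called for STI571 by limma, against 3.06% of all genes. At an unadjusted p under 0.05 there were 2 of 14, against 12.4% of all genes, and the median log2 change was −0.07. CYCS, the gene of cytochrome c, had a log2 change of −0.80 for BV-173 and of −0.50 for SUP-B15 (adjusted p = 0.0705). BIRC2, an inhibitor of apoptosis, had 0.82 and 0.38 (adjusted p = 0.096). VDAC3, a channel of the outer mitochondrial membrane, had −0.16 and −0.40 (adjusted p = 0.701), and BIRC5, the gene of survivin, −0.28 and 0.67 (0.833). The other BIRC5 probe sets did not follow it in SUP-B15, at 0.13 and −0.19 for one and −0.35 and −0.17 for the other. Between the lines, 5 of the 14 were called lower and 1 higher in SUP-B15, against 29.0% of all genes called. The lower ones were VDAC3 (−1.33), DFFA (−1.23), which restrains the nuclease that cuts DNA in dying cells, HTRA2 (−0.67), VDAC2 (−0.66), which holds BAK at mitochondria, and BIRC5 (−0.55). APAF1, the scaffold of the apoptosome, was higher in SUP-B15 (1.02, adjusted p = 0.0143). Apart from VDAC3 and BIRC5, the genes of this line comparison were named after their values were seen. The BIRC5 difference turned to 0.46 with gene-specific probe sets, without passing (adjusted p = 0.346), and its call ended under 5 other alternatives. The APAF1 call ended with no filter (0.0641), without the intensity trend (0.122) and without a treatment term (0.0505), that of HTRA2 under 2 alternatives, and those of VDAC3, DFFA and VDAC2 under 1 each.

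Of 18 binding partners and turnover factors of the family's proteins, 15 were kept and 0 were called for STI571 by limma, against 3.06% of all genes. At an unadjusted p under 0.05 there was 1 of 15, against 12.4% of all genes, and the median was −0.01. BTRC, a ubiquitin ligase subunit, had log2 changes of 0.47 and 1.04 (adjusted p = 0.857), with signals of 82.1 and 123 in BV-173 against 5.5 and 37.4 for SUP-B15. BTRC passed the filter only through treated BV-173, which favours a higher value with STI571 there and a line difference. Its other probe sets were not kept and differed, at −0.94 and −1.55 for one and 1.18 and −0.59 for the other. USP9X, a deubiquitinase that stabilises MCL1, had 0.65 and 0.31 (adjusted p = 0.264). FBXW7, a ubiquitin ligase subunit that marks MCL1 for destruction, had −0.34 and −0.32 (adjusted p = 0.813), and YWHAH, a 14-3-3 protein of the group that binds phosphorylated BAD, −0.31 and −0.23 (0.831). Between the lines, 2 of the 15 were called higher and 1 lower in SUP-B15, against 29.0% of all genes called.

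**Figure D4:**
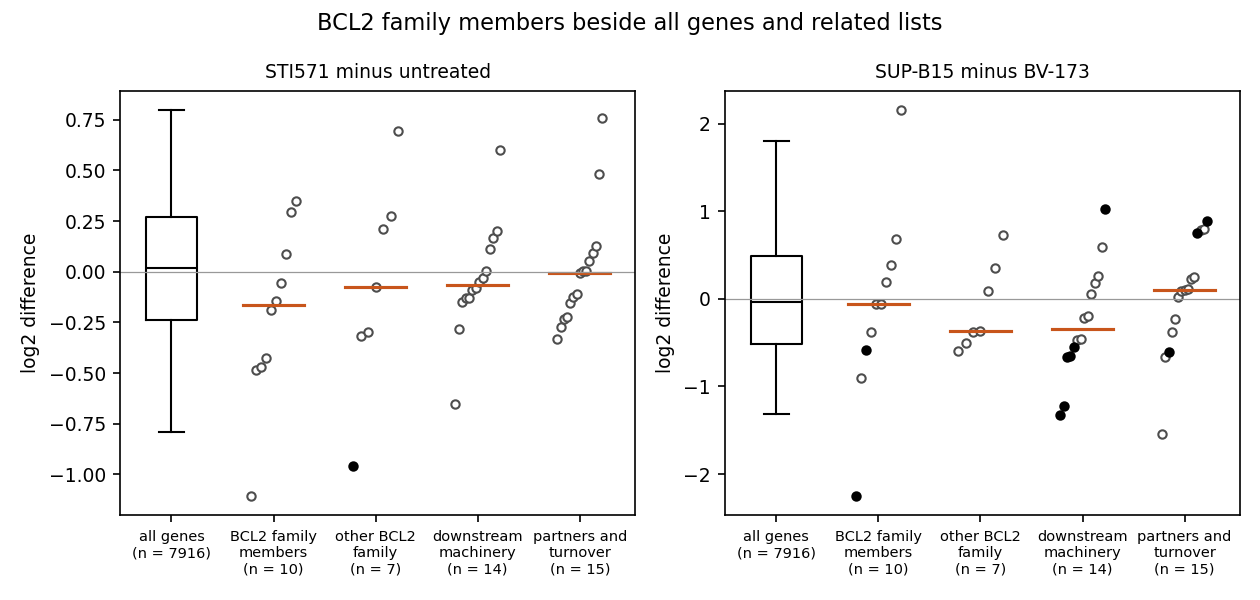
Mean log2 difference with STI571 (left) and between the lines (right) for the 10 members and 3 related lists, each point 1 gene, black where the adjusted p is under 0.05, with the list's median as an orange bar; the box shows all 7916 genes (quartiles, whiskers at the 5th and 95th percentiles). BNIP3 (−0.96) is the 1 black point for STI571.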

How the data were processed

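Per the labels, total RNA of 4 samples was extracted with a Qiagen kit, biotin-labelled and run on Affymetrix arrays. The authors deposited 1 linear signal intensity for every probe set, from GCOS 1.3 per the submitters' processing notes. How probes were summarised and scaled was not given in the sources used here, nor were detection calls. After trimming 2% at each end, every array had a mean of 500.2. GEO's platform annotation gave 1 symbol for 19064 of 22277 probe sets, several for 1043 and none for 2108, besides 62 controls; all 10 members matched RefSeq by Entrez ID, used for names alone.

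Differences of log2(signal + 24.5) were tested with limma 3.58.1 (R 4.3.3), cell line and treatment as terms, an intensity trend, two-sided, Benjamini-Hochberg at 0.05, over 7916 genes and over 11818 probe sets. The fit left 1 residual degree of freedom and an infinite prior. It was run on data simulated from the fitted model, with the same response in both lines. That run cannot show whether the real data follow the model. The cell line pairs treated and untreated arrays. Intervals use the fit's standard errors.

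Alternatives were other scalings, added values of 1 and 98, filters (none, 75th percentile), probe set rules, no trend, a robust prior, fewer terms, and 1.5-fold and 3-fold. From each list, called genes and the 4 largest mean changes were named. Members and lists were chosen with earlier results of these data known. Sequences are not printed, since no array probe or protein sequences were used here.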

Additional observations from a re-analysis of the deposited data

Results flagged for a closer look

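The direction of the STI571 response was opposite in the lines, at least 2-fold apart, for 3 of 10 members by their brightest probe sets. The share of all genes that met both conditions was not counted. Of all genes, 44.5% had opposite signs and 17.3% were 2-fold or more apart. The response of SUP-B15 minus that of BV-173 was 1.19 log2 units for BCL2L1, −1.43 for BCL2L11 and −1.12 for BAD. With 1 array per group these differences were not tested. The other BCL2L1 probe sets gave −1.23 and −0.53, opposite in sign to the brightest. The other probe set gave −0.81 for BCL2L11 and −0.60 for BAD, with the sign of the brightest. That of BAD was nearly level in SUP-B15 (346.6 without and 346.4 with STI571), so it did not show opposite directions. That of BCL2L11 was dim in all arrays and was not kept. It read 19.0 and 14.1 in SUP-B15, so its direction there is not settled.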

How the results depend on the processing

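The count of 0 members called for STI571 was the same under all 11 alternatives for genes and all 9 for probe sets; 2 of these alternatives, without the intensity trend and without the block for the cell line, called 0 of all genes (669 and 73 at an unadjusted p under 0.05). The 2 members called between the lines became 1 with quantile normalization, the 75th percentile filter (which kept 5 members, without BAK1), the mean of probe sets, gene-specific probe sets (8 members), no intensity trend and no treatment term, and 3 with no filter or with 98 added. The 3 called probe sets became 1 without the intensity trend, 2 with quantile normalization, a common median, the 75th percentile filter and no treatment term, and 4 with no filter or with 98 added. The 1 member at 2-fold in BV-173 became 2 at 1.5-fold or with 1 added, and 0 at 3-fold, with 98 added, with the 75th percentile filter and with the mean of probe sets. The 2 at 2-fold in SUP-B15 became 3 at 1.5-fold or with 1 added, 1 at 3-fold or with 98 added, and 0 with the 75th percentile filter. The 4 members 2-fold apart became 0 at 3-fold and with the 75th percentile filter, 1 with 98 added, 2 with the mean of probe sets, 3 with a common median, and 5 at 1.5-fold or with gene-specific probe sets. Signs turned, none of them called, for the STI571 change of BCL2 (0.22) and BAX (0.11) and the line difference of BCL2L1 (0.18) with the mean of probe sets, and for the STI571 change of MCL1 (−0.12) and the line difference of BIRC5 (0.46) with gene-specific probe sets. The cause was not tested. Without the intensity trend no gene was called for STI571, and dim genes had wide intervals.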

Other observations

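Genes of the p53 response, to which PMAIP1 and BAX belong, were read beside the family. Of 20 listed genes 13 were kept, and limma called 0 of them for STI571, against 3.06% of all genes. At an unadjusted p under 0.05 there was 1 of 13, against 12.4% of all genes, and the median was 0.04. MDM2, the ubiquitin ligase that limits p53, had the largest mean log2 change (0.80, adjusted p = 0.0566 by limma). It read 184 and 465 without and with STI571 in BV-173 and 910 and 1182 in SUP-B15. FAS had log2 changes of −0.23 for BV-173 and 1.52 for SUP-B15 (adjusted p = 0.799 by limma). SESN1 had −0.12 and −0.60 (0.742) and TNFRSF10B −0.08 and −0.61 (0.938). Between the lines 4 were called higher and 5 lower in SUP-B15, beside 29.0% of all genes called. Besides those described below, GADD45A (0.85) and CDKN1A (0.81) were higher. AEN (−2.30), DDB2 (−1.80), ZMAT3 (−1.32) and CCNG1 (−0.87) were lower. These were named after their values were seen. The death receptor TNFRSF10B read 4.1 and 2.5 in BV-173 and 373 and 236 in SUP-B15, and was called higher in SUP-B15 (adjusted p = 1.58e-05 by limma) and under all 10 alternatives run. The size of the difference is set by the value added before the logarithm, at 3.53 with 24.5 (SE 0.73), 1.97 with 98 and 6.14 with 1, since the BV-173 signals cannot be set against background. MDM2 was higher in SUP-B15 by 1.73 (SE 0.26), called under 9 of 11 alternatives; averaging its probe sets gave 0.55 (adjusted p = 0.327). The death receptor FAS was lower, reading 236 and 198 in BV-173 and 8.4 and 70.1 in SUP-B15, a log2 difference of −2.11 (SE 0.62, adjusted p = 0.00355), called under 8 of 9 (0.0757 without the intensity trend). TNFRSF10B, FAS and AEN each passed the filter through 1 line alone, which favours a line difference.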
